A study of Mus musculus with 4 samples.

Results

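Genes that govern the G1 phase of the cell cycle were followed in whole embryonic mouse pancreas at E18.5 in controls and after *Pdx1*-Cre deletion of *Rest*. The 10 genes were taken from the count table by symbol: the D cyclins *Ccnd1*, *Ccnd2* and *Ccnd3*, the kinases *Cdk4* and *Cdk6*, the CIP/KIP inhibitors *Cdkn1a*, *Cdkn1b* and *Cdkn1c*, the CDK2-binding protein gene *Cdk2ap1*, and the CDK5 activator gene *Cdk5r2*. All 10 were present among the 24391 genes of the table, and all 10 passed the filter on low counts that left 14550 genes for testing. Of the 4 libraries, 2 were from embryos labelled Pdx1Cre RESTLoxP/LoxP (hereafter RestpKO) and 2 from controls labelled Pdx1Cre RESTwt, so Cre was carried by both groups. All are of a mixed strain background with C57BL/6. *Pdx1*-Cre acts in the pancreatic epithelium and spares the mesenchyme, and the whole organ was sequenced. The study asked how REST, a transcriptional repressor that keeps neuronal and endocrine genes silent, controls endocrine differentiation, and whether its loss alters proliferation in the endocrine lineage. *Ccnd1*, *Cdk2ap1* and *Cdk5r2* were reported by the study as REST-bound positive cell cycle regulators with raised expression in RestpKO pancreas. The study called raised expression with DESeq2 at an adjusted p under 0.05. On the 4 libraries here DESeq2 gave these genes, in the same order, adjusted p of 0.894, 0.534 and 0.824. The libraries here belong to the same RNA-seq experiment, so the direction of these genes is not independent evidence.

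D cyclins are made in response to growth signals and activate CDK4 and CDK6, which phosphorylate the retinoblastoma protein and so release E2F factors that switch on S phase genes. The CIP/KIP proteins p21 (*Cdkn1a*), p27 (*Cdkn1b*) and p57 (*Cdkn1c*) bind cyclin-CDK complexes and hold cells in G1. In the pancreas, D2 cyclin and CDK4 are known for their part in beta-cell proliferation, and p57 marks cells that leave the cycle. CDK2AP1 binds CDK2, and p39, the product of *Cdk5r2*, activates CDK5, a kinase of neurons and beta cells that does not drive the cell cycle itself.

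Counts per library summed to between 16936759 and 24134100, over 17071 to 17306 genes with a count. Replicates were further apart than counting noise allows, more so in RestpKO (chi-square divided by its degrees of freedom 64.9) than in controls (23.2). The labels do not say that the samples of a group came from separate embryos, so p-values measure the spread between these samples, which may be technical. Genes of acinar cells, ducts and islets were detected in every library (sums are given with the marker lists). *Rest* itself was at 14.2 and 15.7 CPM (counts relative to the TMM-scaled library total) in controls 1 and 2 against 12.1 and 9.16 CPM in RestpKO. The genotypes did not overlap, with RestpKO lower, and the difference on the log2 scale, −0.49 with a standard error (SE) of 0.23, missed the threshold (edgeR adjusted p = 0.593). The allele removes exon 4 only, so counts over the whole gene do not measure the deletion itself.

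None of the 10 genes passed the test across all genes, with adjusted p from 0.396 to 0.859 (edgeR's quasi-likelihood test, Benjamini-Hochberg over the 14550 genes). The test called 0% of all genes higher and 0.0275% lower in RestpKO. At an unadjusted p under 0.05 stood 4 of the 10, against 8.87% of all genes. Of these, 3 were higher (*Cdkn1a*, *Cdk2ap1* and *Cdk5r2*), against 3.26% of all genes. The other 1 was lower (*Cdk6*), against 5.61% of all genes. DESeq2 called *Cdkn1a* alone, as higher, where it called 0.182% of all genes higher and 0.533% lower. In 4 of the 10 genes both RestpKO libraries lay above both controls (*Cdk4*, *Cdkn1a*, *Cdk2ap1* and *Cdk5r2*), a pattern that 21.5% of all genes showed. In 3 both lay below (*Ccnd2*, *Cdk6* and *Cdkn1c*), against 21.2% of all genes, and *Ccnd1*, *Ccnd3* and *Cdkn1b* overlapped between genotypes. *Cdk2ap1* and *Cdk5r2* stand in both counts of higher genes and were reported as up-regulated by the study, so neither count is independent evidence. Log2 fold changes ranged from −0.87 to 1.45 with a median of 0.24, and all genes tested had a median of −0.0048 and spanned −0.77 to 0.59 from the 5th to the 95th percentile. *Cdk6* lay below that span, and *Cdkn1a*, *Cdk2ap1* and *Cdk5r2* above it. In bulk tissue, more cells of a type and more RNA per cell cannot be told apart.

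**Figure D1:**
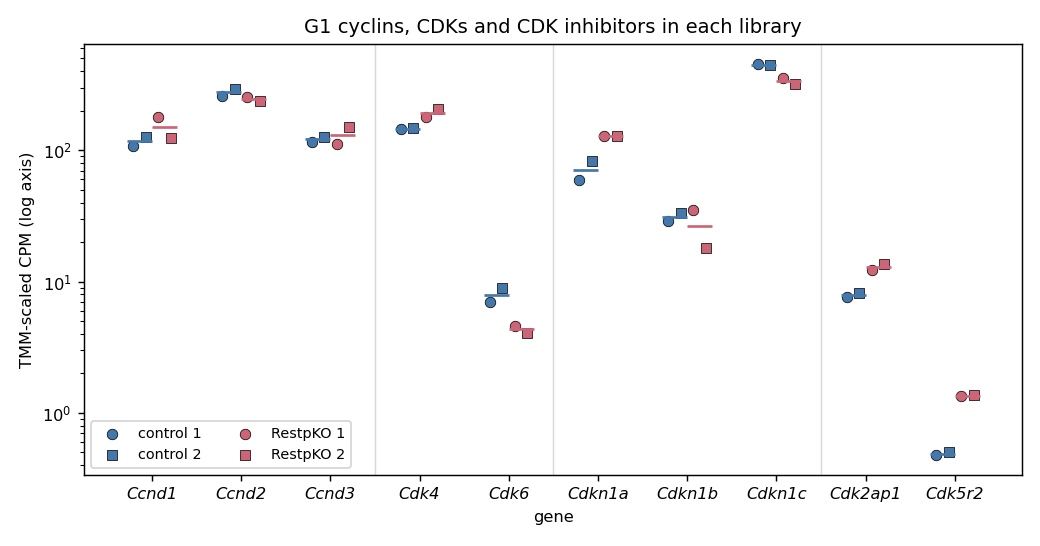
TMM-scaled CPM (log axis) of the 10 genes, each point 1 library (circles replicate 1, squares replicate 2), with horizontal lines at the mean of each genotype (n = 2). Values run from 0.476 CPM for *Cdk5r2* to 457 CPM for *Cdkn1c*, and *Cdkn1a*, *Cdk2ap1*, *Cdk5r2* and *Cdk6* show the widest gaps between genotypes.

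*Cdk5r2* showed the largest difference of the 10 between genotypes and had the fewest counts. It was counted 8 and 10 times in control replicates 1 and 2 and 29 and 30 times in RestpKO replicates 1 and 2. Scaled to library size, the exact Poisson 95% intervals of these counts, which cover counting error only, were 0.206 to 0.938 and 0.242 to 0.928 CPM in the controls and 0.901 to 1.93 and 0.922 to 1.95 CPM in RestpKO. Within each genotype the libraries were nearly equal, and the lower ends of the RestpKO intervals reached just into those of the controls. On the TMM scale the means were 0.490 ± 0.0199 CPM in controls and 1.36 ± 0.0155 CPM in RestpKO (SD, n = 2 each). This is 2.74 times the control level with a 95% interval of 1.29 to 5.83. On the log2 scale the difference was 1.45 with an SE of 0.47, and 99.6% of genes tested had a smaller one. It did not pass over all genes (edgeR adjusted p = 0.465, DESeq2 adjusted p = 0.824).

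*Cdk5r2* is a gene of 1 exon on chromosome 1 (74901508 to 74904005, plus strand, mm9). The region within 5 kb on either side of its start was searched on both strands for the RE1 element, the sequence that REST recognises. The 21-base RE1 consensus was used, with up to 3 mismatches allowed among its 18 defined letters. It held 2 matches, printed here 5′ to 3′ because they are the only ones found near any of the 10 genes. Letters that match a defined letter of the element are in capitals, and both matches read on the minus strand. Lower case holds the mismatches and also the positions the element leaves undefined.
Cdk5r2 match in the UTR, chr1:74903827-74903847, 3 mismatches: cTCAGCACCtcGGACAattCC
Cdk5r2 match downstream, chr1:74904804-74904824, 2 mismatches: TTCAGCACCacGGACAGCgaa
These matches lie 2329 and 3306 bp after the start of the gene, the first inside its untranslated region and the second beyond its only exon. A match of this quality was present in the same window of 390 of 13067 genes scanned, or 2.98%. For the other 9 genes the closest run of letters had 4 to 6 mismatches, with 4 for *Ccnd1*, *Cdkn1b* and *Cdkn1c*. A match is a description of letters, and its absence from a window says nothing of REST binding further away. The study mapped REST binding by ChIP-seq in embryonic pancreas at an earlier stage and listed *Ccnd1*, *Cdk2ap1* and *Cdk5r2* as REST-bound. Of the genes related to *Cdk5r2* by function, *Cdk5*, the kinase it activates, overlapped between genotypes at 16.9 and 22.4 CPM in controls and 21.6 and 25.2 CPM in RestpKO (log2 fold change 0.25, edgeR adjusted p = 0.719). The other CDK5 activator, *Cdk5r1* (p35), was at 1.49 and 1.56 CPM in controls and 1.11 and 1.05 CPM in RestpKO (log2 fold change −0.50, edgeR adjusted p = 0.712). The related activators thus lay on opposite sides of 0, each without overlap of the libraries, and neither passed.

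*Cdk2ap1*, which encodes a small protein that binds CDK2 and restrains it, was at 7.62 and 8.12 CPM in controls and 12.3 and 13.6 CPM in RestpKO. The genotypes did not overlap and the spread within each was small. The difference was 0.72 on the log2 scale with an SE of 0.22 (edgeR adjusted p = 0.457, DESeq2 adjusted p = 0.534), or 1.64 times the control level (95% interval 1.15 to 2.34). The gene lies on chromosome 5 from 124795426 to 124804680. Of its longest coding transcript, 98.3% of bases align at 99.4% identity to a stretch of chromosome 11 (48638859 to 48640157) where *Gm12184*, which does not stand in the count table, and 1 exon of *Trim7* on the other strand are annotated. *Trim7* was counted, at 2.74 and 3.78 CPM in controls and 3.57 and 2.28 CPM in RestpKO, and overlapped between genotypes (log2 fold change −0.16, edgeR adjusted p = 0.890). Because the authors kept uniquely mapped reads, reads common to both copies were lost or placed by a few differing bases, and the level of *Cdk2ap1* is uncertain. Its paralogue *Cdk2ap2* was at 33.1 and 35.8 CPM in controls and 37.9 and 52.6 CPM in RestpKO (log2 fold change 0.39, edgeR adjusted p = 0.635).

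*Cdkn1a*, which encodes p21, the inhibitor induced by p53 and by differentiation signals, was at 59.1 and 82.7 CPM in controls and 129 and 128 CPM in RestpKO. Both RestpKO libraries were alike and lay well above both controls, which differed more from each other. The means were 70.9 ± 16.7 and 129 ± 0.644 CPM (SD, n = 2 each). The log2 fold change of 0.86 had an SE of 0.21 and stands for 1.82 times the control level, with a 95% interval of 1.29 to 2.55. It did not pass in edgeR (adjusted p = 0.396) and passed in DESeq2 (adjusted p = 0.0447). Over the alternatives that kept all 4 libraries the adjusted p of edgeR, limma-voom or DESeq2 ran from 0.0447 to 0.417. Leaving out 1 control at a time gave a log2 fold change of 0.63 without replicate 1 and 1.12 without replicate 2. The gene lies on chromosome 17 from 29227924 to 29237667.

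Other targets of p53 lay on both sides of 0. All 16 listed were tested, 9 were above 0 and 7 below it on the log2 scale, and their median was 0.07. Both RestpKO libraries lay above both controls in 3 and below in 2, against 21.5% and 21.2% of all genes. None passed in edgeR or DESeq2. At an unadjusted p under 0.05, 3 were higher and 1 lower in edgeR, against 3.26% and 5.61% of all genes. *Btg2*, an antiproliferative gene, was at 77.4 and 87.3 CPM in controls and 123 and 115 CPM in RestpKO (log2 fold change 0.53, edgeR adjusted p = 0.480). *Sesn2*, a stress-induced sestrin, and *Bax*, an activator of apoptosis, stood at 0.60 and 0.45 on the log2 scale (edgeR adjusted p = 0.509 and 0.540). *Pmaip1*, which encodes the apoptosis inducer NOXA, was at −0.93 on that scale (edgeR adjusted p = 0.555).

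*Cdkn1c*, which encodes p57 and is expressed from the maternal allele only, was the most abundant of the 10 genes per kb of exon. It was at 457 and 442 CPM in controls and 352 and 317 CPM in RestpKO, on the other side of its family from *Cdkn1a*. The libraries did not overlap, with means of 449.8 ± 10.7 and 335 ± 24.9 CPM (SD, n = 2 each). The difference was −0.43 on the log2 scale with an SE of 0.19 (edgeR adjusted p = 0.581, DESeq2 adjusted p = 0.677). *Cdkn1b*, which encodes p27, was at 29.0 and 33.3 CPM in controls and 35.3 and 18.1 CPM in RestpKO. Its RestpKO libraries lay on either side of the controls, and its log2 fold change of −0.22, SE 0.31 (edgeR adjusted p = 0.820), became 0.18 without RestpKO replicate 2 and −0.78 without RestpKO replicate 1.

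Because *Cdkn1a* and *Cdkn1c* lay on opposite sides, the make-up of the CIP/KIP family was compared within each library, which needs no scaling between libraries. Counts were divided by exon length for this. *Cdkn1a* made up 9.85% and 13.6% of the family's length-scaled counts in controls and 23.4% and 25.6% in RestpKO. *Cdkn1c* made up 87.8% and 83.7% in controls and 73.5% and 72.7% in RestpKO. *Cdkn1b* stayed between 1.76% and 3.13% of the family in all 4 libraries. Per kb, *Cdkn1c* was 8.91 and 6.16 times as abundant as *Cdkn1a* in controls and 3.14 and 2.84 times in RestpKO. The shares did not overlap between genotypes for *Cdkn1a* and *Cdkn1c* and overlapped for *Cdkn1b*. With *Cdkn1a* above and *Cdkn1c* below the controls in both RestpKO libraries, their ratio had to separate the genotypes. The ratio and the shares are thus not evidence separate from the single-gene values. With 2 libraries against 2, an exact permutation test cannot go below p = 0.333, so no test of these shares was made. The length-scaled sum of the family was 270 and 274 CPM per kb in controls and 248 and 226 in RestpKO.

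**Figure D2:**
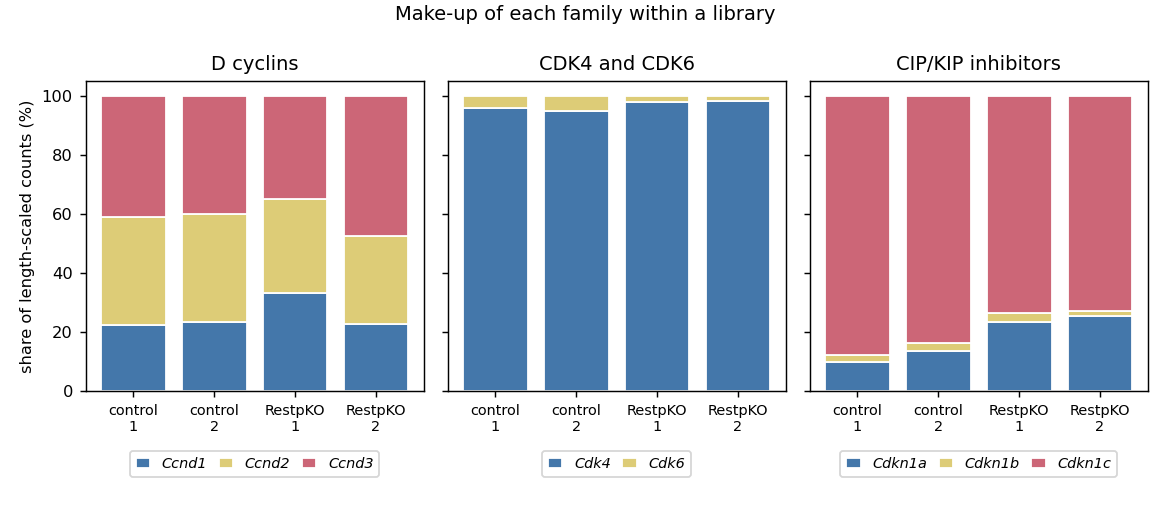
Share of each gene in the length-scaled counts of its family (percent, bars stacked to the family's total) in each of the 4 libraries. *Cdkn1a* takes 9.85% and 13.6% of the CIP/KIP family in controls and 23.4% and 25.6% in RestpKO, *Cdk6* a smaller share of the kinases in RestpKO, and *Ccnd1* its largest share of the D cyclins in RestpKO replicate 1.

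The kinases of the D cyclins also lay on opposite sides. *Cdk4* was at 146 and 147 CPM in controls and 178 and 206 CPM in RestpKO, so that both RestpKO libraries were above both controls. On the log2 scale *Cdk4* differed by 0.39 with an SE of 0.18 (edgeR adjusted p = 0.588, DESeq2 adjusted p = 0.765). *Cdk6* was at 6.96 and 8.88 CPM in controls and 4.59 and 4.05 CPM in RestpKO, from 89 to 176 counts per library. Both RestpKO libraries lay below both controls, at 0.545 times the control level (95% interval 0.351 to 0.846). Its log2 fold change of −0.87, SE 0.27, did not pass (edgeR adjusted p = 0.460, DESeq2 adjusted p = 0.527). Per kb of exon, *Cdk4* was 24.0 and 19.0 times as abundant as *Cdk6* in controls and 44.6 and 58.6 times in RestpKO. The ratio did not overlap between genotypes, which was fixed by *Cdk4* lying above and *Cdk6* below the controls in both RestpKO libraries. *Cdk6* supplied 3.99% and 4.997% of the length-scaled sum of the kinases in controls and 2.19% and 1.68% in RestpKO, which restates that ratio. *Cdk4* lies on chromosome 10 (126500590 to 126504976), where 18.6% of its exon bases are shared with *Tspan31* on the opposite strand. The strand setting of the counting is not given, so reads there cannot be told apart. *Tspan31* itself overlapped between genotypes (log2 fold change 0.12, edgeR adjusted p = 0.822). *Cdk6* lies on chromosome 5 (3343893 to 3523218), and 9.05% of its longest transcript aligns elsewhere in the genome, at many places.

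The D cyclins showed the smallest differences of these families in summed level. The length-scaled sum of *Ccnd1*, *Ccnd2* and *Ccnd3* was 125 and 141 CPM per kb in controls and 141 and 141 in RestpKO, so the means of the genotypes were closer than the controls were to each other. *Ccnd1* was at 108 and 126 CPM in controls and 180 and 123 CPM in RestpKO. RestpKO replicate 1 alone was above the controls, and RestpKO replicate 2 lay between them. Its log2 fold change was 0.37, SE 0.23 (edgeR adjusted p = 0.652, DESeq2 adjusted p = 0.894), and it was 0.07 without RestpKO replicate 1 and 0.62 without RestpKO replicate 2. *Ccnd2*, the D cyclin most linked to beta-cell growth, was at 260.1 and 294 CPM in controls and 256.2 and 239 CPM in RestpKO. The lowest control and the highest RestpKO library were close to each other, and the difference was −0.16 on the log2 scale, SE 0.19 (edgeR adjusted p = 0.781). *Ccnd3* was at 116 and 127 CPM in controls and 112 and 151 CPM in RestpKO, on either side of the controls. Its log2 fold change of 0.12, SE 0.21 (edgeR adjusted p = 0.859), became −0.11 without RestpKO replicate 2. The 95% intervals of the fold change were 0.895 to 1.87 for *Ccnd1*, 0.660 to 1.21 for *Ccnd2* and 0.777 to 1.51 for *Ccnd3*, and each interval holds 1, no difference.

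Within the D cyclin family, *Ccnd2* took 36.4% and 36.7% of length-scaled counts in controls and 31.8% and 29.7% in RestpKO, without overlap. *Ccnd1* took 22.5% and 23.3% in controls and 33.2% and 22.7% in RestpKO. *Ccnd3* took 41.1% and 39.9% in controls and 35.1% and 47.5% in RestpKO. In *Ccnd1* and *Ccnd3* the RestpKO libraries stood further apart than the controls, and the higher one was not the same library. The order of the shares depends on the division by exon length, without which *Ccnd2* took the largest mean share (53.7% in controls and 46.6% in RestpKO) and *Ccnd3* 23.6% and 24.9%. *Ccnd1* shares 21.3% of its exon bases with *Oraov1* and *Ccnd3* 15.7% with *Bysl*, both on the opposite strand, and neither neighbour passed (edgeR adjusted p = 0.699 and 0.753). *Ccnd3* also has a pseudogene on chromosome 4 to which 86.7% of its transcript aligns, at 95.5% identity.

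**Figure D3:**
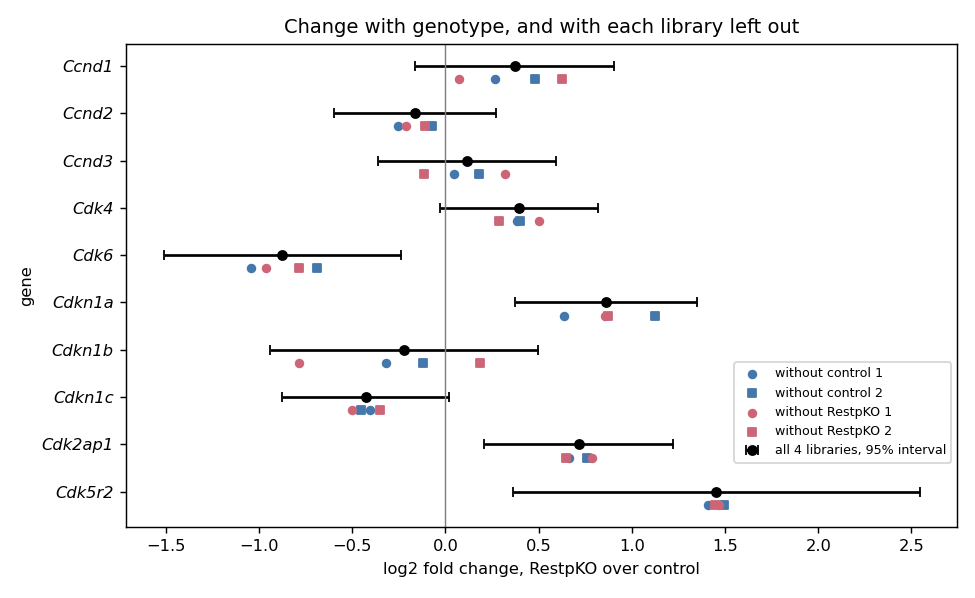
Log2 fold change of each gene, RestpKO over control, with its 95% interval from edgeR (black, 4 libraries) and the value with each library left out in turn (small symbols below). The intervals of *Cdk6*, *Cdkn1a*, *Cdk2ap1* and *Cdk5r2* exclude 0 before adjustment over all genes, and *Ccnd1*, *Ccnd3* and *Cdkn1b* move most with a RestpKO library.

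Compared per kb of exon, the mean levels of the 10 genes in controls spanned 1187-fold from highest to lowest. *Cdkn1c* led at 233 ± 5.57 CPM per kb in controls (SD, n = 2), far above the next gene. *Ccnd3* (53.8 ± 3.27) and *Ccnd2* (48.6 ± 4.25 CPM per kb) followed, with overlapping control libraries, and *Cdk4* (45.0 ± 0.251 CPM per kb) lay just under the lower library of *Ccnd2*. *Cdkn1a* (31.9 ± 7.49) and *Ccnd1* (30.5 ± 3.21 CPM per kb) came next, and their libraries overlapped. *Cdkn1b* (6.85 ± 0.658), *Cdk2ap1* (4.05 ± 0.182), *Cdk6* (2.12 ± 0.362) and *Cdk5r2* (0.196 ± 0.00796 CPM per kb) were each separated from their neighbours in this order by more than their spread. In RestpKO the libraries of *Cdk4* (59.2 ± 6.21), *Ccnd3* (58.3 ± 12.4) and *Cdkn1a* (57.9 ± 0.290 CPM per kb) overlapped, so *Cdkn1a* stood beside genes it had been below in controls. Exon lengths came from another mm9 annotation than the one used for counting, so these levels are approximate. By position, *Cdkn1c* and *Ccnd1* lie 1469 kb apart on chromosome 7 (150644255 to 150646955 and 152115836 to 152125774). *Ccnd2* and *Cdkn1b* share chromosome 6 (127075797 to 127101066 and 134870419 to 134875531), and *Ccnd3* shares chromosome 17 with *Cdkn1a* (47642000 to 47736632 for *Ccnd3*).

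The rest of the G1/S pathway was followed through 32 genes of cyclins E and A, CDK2, the INK4 inhibitors, the retinoblastoma and E2F families, the CDK-activating kinase, the licensing factors and MYC, among others. Of these, 31 were tested, with 14 above 0 and 17 below 0 on the log2 scale and a median of −0.0079. None passed in edgeR or DESeq2. At an unadjusted p under 0.05 in edgeR 1 was lower and none higher, against 5.61% and 3.26% of all genes. In 3 both RestpKO libraries lay above both controls and in 3 below, and 25 overlapped, where 42.7% of all genes did not overlap. *E2f2*, an activating E2F, was at 5.30 and 13.3 CPM in controls and 4.64 and 4.15 CPM in RestpKO. Control replicate 2 alone was high, with a log2 fold change of −1.09, SE 0.42 (edgeR adjusted p = 0.528). Without control replicate 1 it was −1.60 and passed (edgeR adjusted p = 0.00867). Genes of red cells summed to 37.8 and 156 CPM and genes of neutrophils to 22.4 and 268 CPM in control replicates 1 and 2, so that *E2f2* was highest in the library richest in both. Their part in *E2f2* was not tested. *Rb1*, which encodes the retinoblastoma protein, was at 21.4 and 18.7 CPM in controls and 18.6 and 9.29 CPM in RestpKO (edgeR adjusted p = 0.652), with RestpKO replicate 2 alone well below the rest. *Ccne2*, a cyclin of the G1/S transition, was lowest in the same library, at 15.7 and 13.0 CPM in controls and 14.05 and 5.10 CPM in RestpKO (edgeR adjusted p = 0.688). *Cdk7*, the kinase that activates other CDKs, was at 49.8 and 46.9 CPM in controls and 43.5 and 36.3 CPM in RestpKO, without overlap (log2 fold change −0.28, edgeR adjusted p = 0.666). *Rb1* and *Ccne2* passed without RestpKO replicate 1, at −1.10 for *Rb1* and −1.48 for *Ccne2* (edgeR adjusted p = 0.0441 and 0.0411). Of the INK4 inhibitors, *Cdkn2a* was not tested, with counts of 0 and 0 in controls and 2 and 1 in RestpKO.

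Genes of S, G2 and M phase were close to 0 as a list. All 22 listed were tested, with 15 above 0 and 7 below 0 on the log2 scale and a median of 0.09. Both RestpKO libraries lay above both controls in 2 and below in 4, against 21.5% and 21.2% of all genes. None passed in edgeR or DESeq2. At an unadjusted p under 0.05 in edgeR 2 were lower (*Mki67* and *Bub1*) and none higher, against 5.61% and 3.26% of all genes. *Mki67*, which encodes the proliferation antigen Ki67, was at 196 and 216 CPM in controls and 149 and 143 CPM in RestpKO, without overlap (log2 fold change −0.50, SE 0.18, edgeR adjusted p = 0.495). The study stained Ki67 protein in NEUROG3-positive endocrine progenitors and found a larger share positive in RestpKO. Whole-organ *Mki67* RNA does not measure proliferation in that population. *Bub1*, a kinase of the mitotic checkpoint, was at 18.7 and 20.1 CPM in controls and 15.6 and 11.9 CPM in RestpKO (log2 fold change −0.50, edgeR adjusted p = 0.561). *Mcm7*, a subunit of the replicative helicase, lay the other way, at 29.0 and 42.1 CPM in controls and 43.9 and 47.3 CPM in RestpKO (log2 fold change 0.36, edgeR adjusted p = 0.652).

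**Figure D4:**
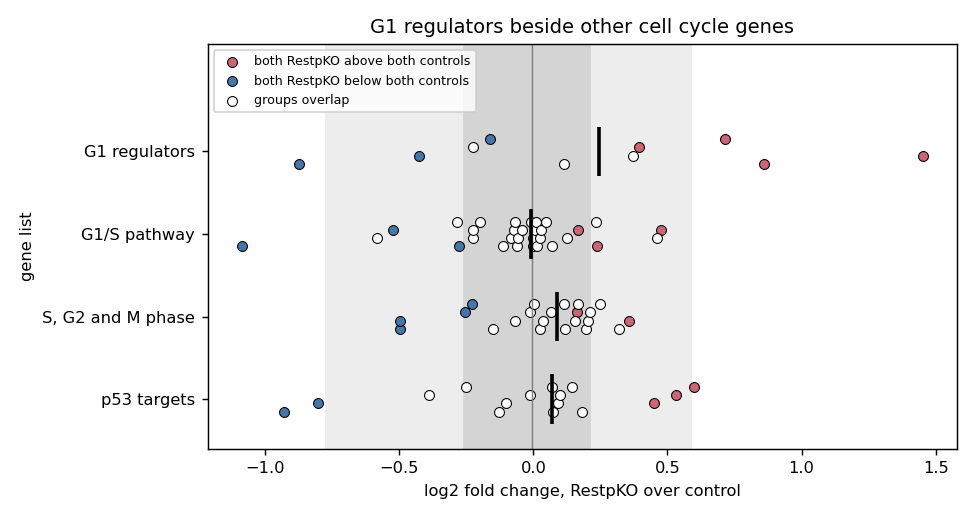
Log2 fold change of the 10 G1 regulators, 31 other G1/S pathway genes, 22 genes of S, G2 and M phase and 16 p53 targets, each point 1 gene, coloured by whether the libraries of the genotypes overlap. Black ticks are list medians (0.24, −0.0079, 0.09 and 0.07), dark grey spans the middle of all genes tested from the 25th to the 75th percentile and light grey that from the 5th to the 95th.

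Marker genes of the cell populations of the organ were set beside these values. Of all genes tested, both RestpKO libraries lay above both controls in 21.5% and below in 21.2%. At an unadjusted p under 0.05 edgeR had 3.26% higher and 5.61% lower, and DESeq2 called 0.182% higher and 0.533% lower. All 13 islet genes lay above 0 on the log2 scale, in 12 both RestpKO libraries lay above both controls, and edgeR called 0 of them (9 at an unadjusted p under 0.05) and DESeq2 7. Their levels summed to 3472 and 2304 CPM in controls and 5086 and 7167 CPM in RestpKO. Between genotypes that is the direction of *Cdkn1a*, *Cdk2ap1*, *Cdk4* and *Cdk5r2*. Between the controls the islet sum was lower in replicate 2, where each of these genes was higher, *Cdk4* and *Cdk5r2* only slightly. Within RestpKO the islet sum was higher in replicate 2, as were *Cdk2ap1*, *Cdk4* and, slightly, *Cdk5r2*, while *Cdkn1a* was slightly lower there. Of 10 neuron and Schwann cell genes tested all were above 0, with sums of 40.8 and 41.3 CPM in controls and 59.6 and 67.9 CPM in RestpKO. All 8 endocrine progenitor genes were above 0, with sums of 60.2 and 53.8 CPM in controls and 88.6 and 59.3 CPM in RestpKO. *Ccnd1*, like this list, was highest in RestpKO replicate 1. Between the controls *Ccnd1* was higher in replicate 2 and the sum of this list in replicate 1. *Neurog3*, which commits progenitors to the endocrine lineage, was at 8.99 and 11.5 CPM in controls and 17.4 and 15.5 CPM in RestpKO (log2 fold change 0.68, edgeR adjusted p = 0.480). Of 12 mesenchyme genes 10 were below 0, with sums of 10824 and 9379 CPM in controls and 5800 and 8838 CPM in RestpKO. That is the direction of *Cdkn1c*, *Cdk6* and *Ccnd2*. Within RestpKO the mesenchyme sum was lower in replicate 1, where these genes were higher. Within controls the mesenchyme sum was higher in replicate 1, where *Cdkn1c* was higher and *Cdk6* and *Ccnd2* were lower. Of 12 macrophage and leukocyte genes 9 were below 0, and DESeq2 called 3 lower. In edgeR none was called, and before adjustment 4 lay lower and 1 higher at p under 0.05. Their sums overlapped (420 and 386 CPM in controls, 311 and 418 CPM in RestpKO). All 7 erythroid genes tested were below 0, each at an unadjusted p under 0.05 in edgeR, which called none of them, and DESeq2 called 2 lower. The globins *Hba-a1* and *Hbb-b1* were at 0 counts in every library. Of 19 acinar genes 16 were above 0, with sums of 298025 and 270987 CPM in controls and 277140 and 389609 CPM in RestpKO. Of duct genes 7 of 12 lay above 0 (1824 and 1660 CPM in controls, 2018 and 2013 CPM in RestpKO), and of endothelial genes 7 of 8 (409 and 522 CPM in controls, 584 and 602 CPM in RestpKO). Like the islet sums, those of duct, endothelial, and neuron and Schwann cell genes were higher in both RestpKO libraries than in both controls. All 6 neutrophil genes tested were below 0, with sums of 22.5 and 11.9 CPM in RestpKO beside the unequal controls given above. Of 9 immediate-early genes, which report handling of tissue as well as signalling, 8 were below 0, with sums of 153 and 119 CPM in controls and 93.7 and 126 CPM in RestpKO. The part of each population in the values of the 10 genes was not tested.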

How the data were processed

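RNA-seq of 4 libraries of E18.5 pancreas was analysed, 2 per genotype, grouped by their labels. The methods give 3 pancreas per genotype, and which of them these libraries hold is not stated. According to the paper's methods, the authors aligned 100-bp paired-end reads to mm9 with STAR, kept uniquely mapped reads, and deposited whole-number counts per UCSC gene from featureCounts (1.5 in the submitters' processing notes). The strand setting, and whether pairs or reads were counted, are not given in the sources used here.

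The counts were filtered with filterByExpr, scaled by TMM and tested for genotype with edgeR 4.0.16 (glmQLFit, glmQLFTest) in R 4.3.3, two-sided, with Benjamini-Hochberg adjustment over 14550 genes at 0.05. Each gene's spread rested on 2 residual degrees of freedom and 5.48 borrowed from other genes, with a biological coefficient of variation of 0.211. Standard errors are the log2 fold change over the square root of F, and 95% intervals use the t distribution. The fit was tested on simulated data. Positions, exon lengths (all exons of a gene merged) and sequence came from the NCBIM37 (mm9) genome with the GENCODE vM1 annotation by symbol. Copies were sought with blastn at 95% identity over 100 bases.

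The 10 genes and the lists were chosen with earlier results of these data known. All 10 genes and *Rest* were named, and from each other list up to 4 genes of smallest p. Outside this rule and named with their values known are *Oraov1*, *Bysl*, *Tspan31* and *Trim7*, whose exons overlap a gene described or its copy, *Cdkn2a*, which was too low to test, and the globins at 0 counts. Alternatives were DESeq2's size factors, TMM factors computed on the table less its acinar and erythroid markers, dropping the low-count filter, a filter of 1 CPM in 2 libraries, DESeq2 1.42.0, limma-voom (limma 3.58.1), a replicate block, each library left out, and D cyclin shares without division by length.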

Additional observations from a re-analysis of the deposited data

How the results depend on the processing

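The direction of the 10 genes' log2 fold changes held in all but 2 of 110 values recomputed under the alternatives, and 1 value passed its threshold that had not. The exceptions were *Ccnd3* (−0.11) and *Cdkn1b* (0.18), both without RestpKO replicate 2, and *Cdkn1a* in DESeq2. Leaving out 1 library at a time gave ranges of −0.11 to 0.32 for *Ccnd3*, −0.78 to 0.18 for *Cdkn1b* and of 0.07 to 0.62 for *Ccnd1*. DESeq2 called 1 of the 10 genes and 102 of all genes, where edgeR called 0 and 4. With each library left out, edgeR called 1 to 514 of all genes (514 without RestpKO replicate 1, 208 and 100 without control replicates 1 and 2, 1 without RestpKO replicate 2), 0 of the 10 genes, and 0 to 2 of the G1/S pathway list. Those were *E2f2* without control replicate 1, and *Ccne2* and *Rb1* without RestpKO replicate 1. With 1 library in an arm, that library is assumed to vary like the other group. Without division by exon length, *Ccnd2* took 53.7% and 46.6% of the D cyclin sum in controls and RestpKO and *Ccnd3* 23.6% and 24.9%. Same-numbered samples of the genotypes did not deviate together (r = 0.0478 over the genes tested), so the numbers were not taken as pairs. With a replicate block edgeR called 4 of all genes and 0 of the 10. Under every alternative the median log2 fold change of all genes stayed within 0.0151 of 0. Depth limits *Cdk5r2* most, at 8 to 30 counts per library.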
